A study of Mus musculus with 20 samples.

Results

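Pramel6, Pramel7 and Tcl1 are 3 mouse genes with transcripts known from embryonic stem cells, and their 5 probe sets were read across 20 arrays. The members were selected on their group levels on these same arrays, so their values are a description and carry no test. They are 3 of the 18193 genes measured here and 5 of 45101 probe sets: 2 for Pramel6, 2 for Pramel7 and 1 for Tcl1, found by the gene symbol of the platform annotation.

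Pramel6 and Pramel7 encode leucine-rich repeat proteins of the PRAME family and are known from mouse embryonic stem cells as genes that respond to leukemia inhibitory factor (LIF) through the transcription factor STAT3. PRAMEL7 is known to direct UHRF1, the factor that guides maintenance DNA methylation, to a Cullin 2 ubiquitin ligase for degradation. Tcl1 encodes a small protein that binds the kinase AKT and raises its activity, and in mouse embryonic stem cells it is known as a gene that depends on Oct4.

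The arrays compare cultured stem cells from testis with pluripotent and somatic cells. The gPS cells (germline pluripotent stem cells, 5 arrays) were expanded under embryonic stem cell conditions from round, GFP-bright colonies, which had appeared within 3 to 4 weeks after about 1000 GSC per well had been seeded on mouse embryonic fibroblasts. The ESC_like cells (3 arrays) came from mouse testes of postnatal day 0 to 2, were provided by another laboratory and carry no strain label. The GSC (germline stem cells, 3 arrays) were established from testes of OG2 mice, an Oct4-GFP transgenic strain (B6;CBA-Tg[Pou5f1-EGFP]2Mnn/J), and the gPS cells carry the same transgene; the labels give no age for these mice beyond the word adult in the series title. The ESC (embryonic stem cells, 3 arrays) were of 1 line, RW4. The NSC (neural stem cells, 3 arrays) were derived from Olig2-GFP embryonic stem cells, and the MEF (mouse embryonic fibroblasts, 3 arrays) were prepared from C3H embryos at day E12.5. Fibroblast feeder cells were under the gPS, ESC_like, GSC and ESC cultures, and LIF is named for the ESC_like, GSC and ESC media, while the gPS cells are described as grown under the ESC conditions. The labels do not say that arrays of a group came from separate cultures or animals, so every p-value below measures only the spread between these arrays.

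Values are log2 intensities per probe set as deposited, so a difference of 1 is 2-fold, and a probe set's level is compared between groups but never with another probe set's. Over all arrays the log2 values ran from 2.04 to 14.71 with a median of 4.98, and the array medians lay between 4.95 and 5.04. The mean correlation of an array with the rest of its group was lowest, at 0.979, in gPS replicate 1, and GSC replicate 1 had the largest excess of the 3' over the 5' Actb control, 1.25 on the log2 scale against 0.12 to 0.57 on the other arrays. Each measured cell type marker had its highest mean in a group of its own cell type, but several were not confined to it. Sox2 averaged 11.44 in NSC and 9.73 in GSC, and Pou5f1 averaged 9.29 in GSC. The germline marker Ddx4 averaged 11.81 in GSC, 7.23 in gPS, 5.42 in ESC_like and 7.17 in MEF. Zfp42 averaged 9.38 in gPS and 9.89 in ESC_like, against 12.27 in ESC. Nanog averaged 11.66 in gPS, 11.93 in ESC_like, 3.96 in GSC and 11.34 in ESC on the log2 scale, and Dazl, a germ cell RNA-binding protein, averaged 5.01 in gPS, 7.60 in ESC_like, 12.21 in GSC and 5.12 in ESC. Olig2 averaged 11.59 in NSC, and Col1a2, a fibroblast collagen, 13.17 in MEF.

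Pramel7 and Pramel6 lie next to each other on chromosome 2 and are transcribed away from each other. In the GRCm38.p6 build of RefSeq, Pramel7 spans chr2:87489088-87492418 on the minus strand and Pramel6 chr2:87506565-87510865 on the plus strand, with 14.1 kb between their starts. Tcl1 spans chr12:105216753-105222737 on the minus strand. The promoter windows of the 3 members are shown because the brighter probe sets of the 2 Pramel genes had nearly the same pattern over the arrays and Tcl1 another one. Each runs 5' to 3' from 250 bases before to 50 bases after the annotated start, at chr2:87492369-87492668 (minus strand) for Pramel7, chr2:87506315-87506614 (plus strand) for Pramel6 and chr12:105222688-105222987 (minus strand) for Tcl1, and capitals mark the letters CCACCC, the core of sites bound by KLF factors.

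Pramel7: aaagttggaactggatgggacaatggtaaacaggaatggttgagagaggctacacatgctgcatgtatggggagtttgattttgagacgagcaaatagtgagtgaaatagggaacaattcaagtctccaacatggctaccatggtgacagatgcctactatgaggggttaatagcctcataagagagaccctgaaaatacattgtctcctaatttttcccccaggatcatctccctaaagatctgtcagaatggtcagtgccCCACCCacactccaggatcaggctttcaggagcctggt

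Pramel6: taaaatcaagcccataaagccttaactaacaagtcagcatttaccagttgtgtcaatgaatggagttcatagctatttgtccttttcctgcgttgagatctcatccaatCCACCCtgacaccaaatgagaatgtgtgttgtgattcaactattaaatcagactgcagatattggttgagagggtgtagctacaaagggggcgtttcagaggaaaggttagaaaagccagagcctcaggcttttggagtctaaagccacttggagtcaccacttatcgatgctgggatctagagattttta

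Tcl1: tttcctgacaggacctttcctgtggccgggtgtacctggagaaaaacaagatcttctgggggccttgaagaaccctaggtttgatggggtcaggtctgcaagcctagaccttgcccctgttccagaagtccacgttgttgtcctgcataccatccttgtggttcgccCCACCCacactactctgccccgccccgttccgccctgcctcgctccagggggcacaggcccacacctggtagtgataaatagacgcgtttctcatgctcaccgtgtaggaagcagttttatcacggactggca

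The Tcl1 window held 11 CpG dinucleotides, the Pramel6 window 3 and the Pramel7 window 1, where the median of 32851 RefSeq promoter windows of this length was 7. Of those windows, 58.6% had fewer CpG than Tcl1, 23.3% fewer than Pramel6 and 5.43% fewer than Pramel7. CCACCC occurred once in each of the 3 windows, 12 bases after the start of Pramel7, 141 before that of Pramel6 and 83 before that of Tcl1, and 31.5% of all windows held it on either strand. Other motifs searched on both strands were not found in the 3 windows: TTCNNNGAA of STAT factors (in 8.30% of all windows), the octamer ATGCAAAT (1.74%), the ESRRB monomer site AAGGTCA (4.72%) and the TATA box TATAAA (13.6%).

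Pramel6 was highest in the ESC_like cells, lower in ESC and low in every gPS array. Its brighter probe set, 1456270_s_at, read 3.62, 3.92, 3.79, 3.67 and 3.46 in the 5 gPS arrays, 7.64, 7.80 and 7.50 in ESC_like, 3.42, 3.27 and 3.43 in GSC and 4.59, 4.95 and 4.96 in ESC (log2). It read 3.17, 3.04 and 3.18 in NSC and 3.21, 2.89 and 3.13 in MEF. The gPS arrays overlapped none of the other groups, but their mean stood closer to those of GSC, NSC and MEF than to that of ESC. The order of the group means was ESC_like, ESC, gPS, GSC, NSC and MEF, and among neighbours only the NSC and MEF arrays overlapped.

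On the same probe set the Pramel6 means were 3.69 ± 0.18 in gPS (SD, n = 5), 7.65 ± 0.15 in ESC_like, 3.37 ± 0.09 in GSC and 4.83 ± 0.21 in ESC (SD, n = 3 each). The gPS mean was 15.5-fold lower than that of ESC_like in measured intensity (-3.96 on the log2 scale) and 2.21-fold lower than that of ESC (-1.14), and it stood 0.32 above that of GSC. The deposited values carry no detection calls, and a fold in intensity against a level this low is not a measured ratio of transcripts, here and for the other low levels below. The ESC_like mean was 7.04-fold higher than the ESC mean. Within each array, the probe set ranked at percentiles 20.2 to 29.8 of all probe sets in gPS, 77.3 to 80.1 in ESC_like and 43.5 to 49.6 in ESC.

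The other Pramel6 probe set, 1456269_at, was dimmer and was also highest in ESC_like. It read 3.23, 3.46, 3.81, 3.64 and 3.23 in gPS, 4.27, 4.58 and 4.52 in ESC_like and 3.71, 3.66 and 3.87 in ESC. Here the gPS arrays overlapped those of ESC, NSC and MEF, and only the ESC_like arrays stood above all others. The ESC_like mean was 0.71 above the ESC mean on the log2 scale, against 2.81 with 1456270_s_at.

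On the brighter probe set Pramel7 was likewise highest in the ESC_like cells, lower in ESC and low elsewhere. Its brighter probe set, 1439810_s_at, read 3.49, 3.42, 3.74, 3.28 and 3.72 in gPS, 7.97, 8.08 and 7.84 in ESC_like, 3.33, 3.48 and 3.53 in GSC and 4.43, 4.95 and 4.38 in ESC (log2). It read 3.21, 2.97 and 3.26 in NSC and 3.47, 3.29 and 3.60 in MEF. The gPS arrays overlapped those of GSC and MEF, and they lay below every ESC array and far below every ESC_like array. The order of the means was ESC_like, ESC, gPS, MEF, GSC and NSC, in which gPS, MEF and GSC did not separate.

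The Pramel7 means on 1439810_s_at were 3.53 ± 0.20 in gPS (SD, n = 5), 7.96 ± 0.12 in ESC_like, 3.44 ± 0.10 in GSC and 4.59 ± 0.32 in ESC (SD, n = 3 each). The gPS mean was 21.6-fold lower than that of ESC_like in measured intensity (-4.43 on the log2 scale) and 2.08-fold lower than that of ESC (-1.05), and 0.09 above that of GSC. The ESC_like mean was 10.4-fold higher than the ESC mean. The within-array percentiles were 13.2 to 26.6 in gPS, 80.4 to 82.5 in ESC_like and 37.8 to 49.7 in ESC. The dimmer probe set, 1439809_at, lay between 3.60 and 3.81 in gPS, 4.05 and 4.34 in ESC_like and 3.55 and 3.85 in ESC, so the gPS and ESC arrays overlapped and the ESC_like arrays were again above all others.

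The brighter probe sets of Pramel6 and Pramel7 correlated over the 20 arrays at a Pearson r of 0.985. The arrays of a group are not independent points, and the 3 ESC_like arrays were high for both. Both names end in s_at, the array maker's mark for a set whose probes can match more than 1 transcript. The probe sequences were not used here, so how much signal the neighbouring genes share was not tested. The 2 probe sets of Pramel6 correlated at 0.905 and those of Pramel7 at 0.783. The dimmer probe sets of the 2 genes, neither of the s_at type, correlated with each other at 0.696.

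Tcl1 followed another pattern, being high in all 4 feeder-grown stem cell groups and near the lower end in NSC and MEF. Its only probe set, 1422458_at, read 8.72, 9.30, 9.33, 9.37 and 9.30 in gPS, 9.65, 9.41 and 9.45 in ESC_like, 8.64, 8.70 and 8.65 in GSC and 11.03, 10.92 and 10.83 in ESC (log2). It read 3.45, 4.30 and 3.90 in NSC and 3.87, 3.81 and 3.82 in MEF. The ESC arrays were the highest, and the parental GSC were already within a factor of 2 of the gPS cells. The order of the means was ESC, ESC_like, gPS, GSC, NSC and MEF. Only NSC and MEF overlapped, although gPS replicate 1, at 8.72, lay just above the highest GSC array at 8.70.

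The Tcl1 means were 9.20 ± 0.27 in gPS (SD, n = 5), 9.50 ± 0.13 in ESC_like, 8.66 ± 0.03 in GSC, 10.93 ± 0.10 in ESC, 3.88 ± 0.43 in NSC and 3.83 ± 0.03 in MEF (SD, n = 3 each). The gPS mean was 1.45-fold higher than that of GSC (0.54 on the log2 scale), 3.31-fold lower than that of ESC (-1.73) and 1.23-fold lower than that of ESC_like (-0.30). Against the somatic cells, at low levels on this probe set, its measured intensity was 40.0-fold higher than in NSC and 41.3-fold higher than in MEF. The ESC_like mean was 2.69-fold lower than the ESC mean, the opposite direction to Pramel6 and Pramel7 in the same comparison. Within each array Tcl1 stood at percentiles 88.0 to 91.7 in gPS, 91.6 to 92.8 in ESC_like, 86.6 to 87.8 in GSC and 97.2 to 97.5 in ESC. Its correlation over the 20 arrays was 0.53 with the brighter Pramel6 probe set and 0.43 with that of Pramel7. In such bulk samples fewer cells that express a gene and less RNA per cell cannot be told apart.

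**Figure D1:**
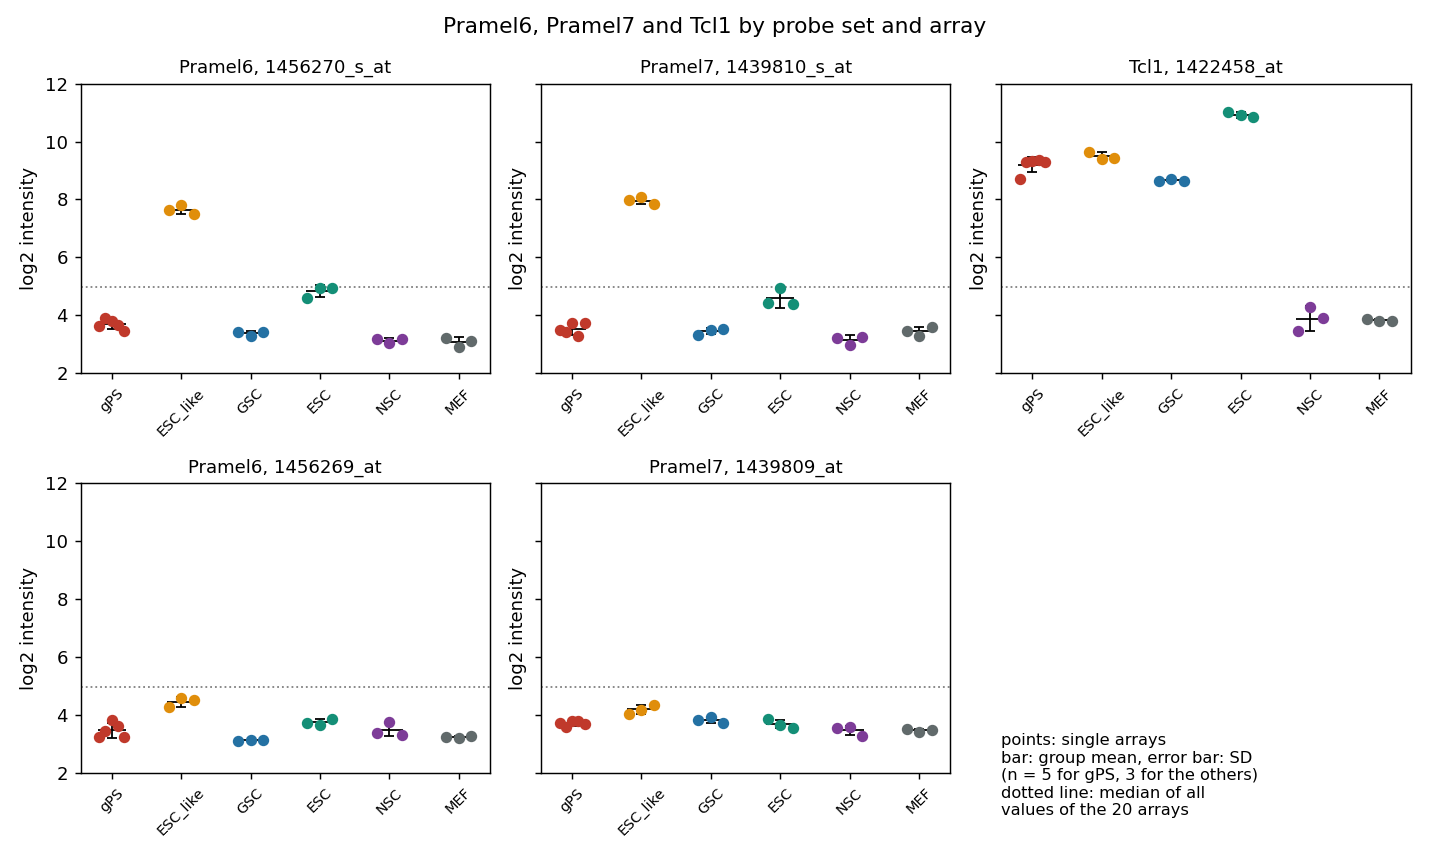
Log2 intensity of the 5 probe sets of Pramel6, Pramel7 and Tcl1 by group, with 1 point per array and the group mean and SD. The 3 ESC_like arrays stand alone at the top for Pramel6 and Pramel7, while Tcl1 is high in gPS, ESC_like, GSC and ESC and lies at 4.30 or below in NSC and MEF.

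The summed level of fibroblast and feeder genes is given beside the members' levels, and the part of fibroblast RNA in them was not tested. The sum does not measure fibroblast RNA alone, since some of its genes were bright in other cells. Vim averaged 13.35 and Sparc 11.06 in NSC, and Fn1 averaged 11.36 in ESC, where Col1a2 averaged 5.96. The summed intensity of 23 fibroblast and feeder genes ran from 9825 to 13271 in gPS, from 28936 to 34365 in ESC_like, from 5109 to 6237 in GSC and from 4898 to 5305 in ESC. The GSC and ESC ranges overlapped. A gene was called at a limma adjusted p under 0.05 (Benjamini-Hochberg over all genes) and a difference of at least 2-fold. Of the 23 genes, 6 were called higher and 3 lower for gPS minus GSC, where 20.0% of all genes were called, 9.10% higher and 10.9% lower. For gPS minus ESC, 16 were called, all higher, where 4.49% of all genes were called (2.36% higher, 2.13% lower). For gPS minus ESC_like, 16 were called, all lower, where 4.85% of all genes were (1.11% higher, 3.74% lower), and for ESC_like minus ESC 19, all higher, where 7.21% were (5.11% higher, 2.10% lower). The sum ran from 14338 to 14668 in NSC and from 115644 to 116747 in MEF. In MEF the members themselves read 2.89 to 3.21 for Pramel6, 3.29 to 3.60 for Pramel7 (brighter probe sets) and 3.81 to 3.87 for Tcl1.

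**Figure D2:**
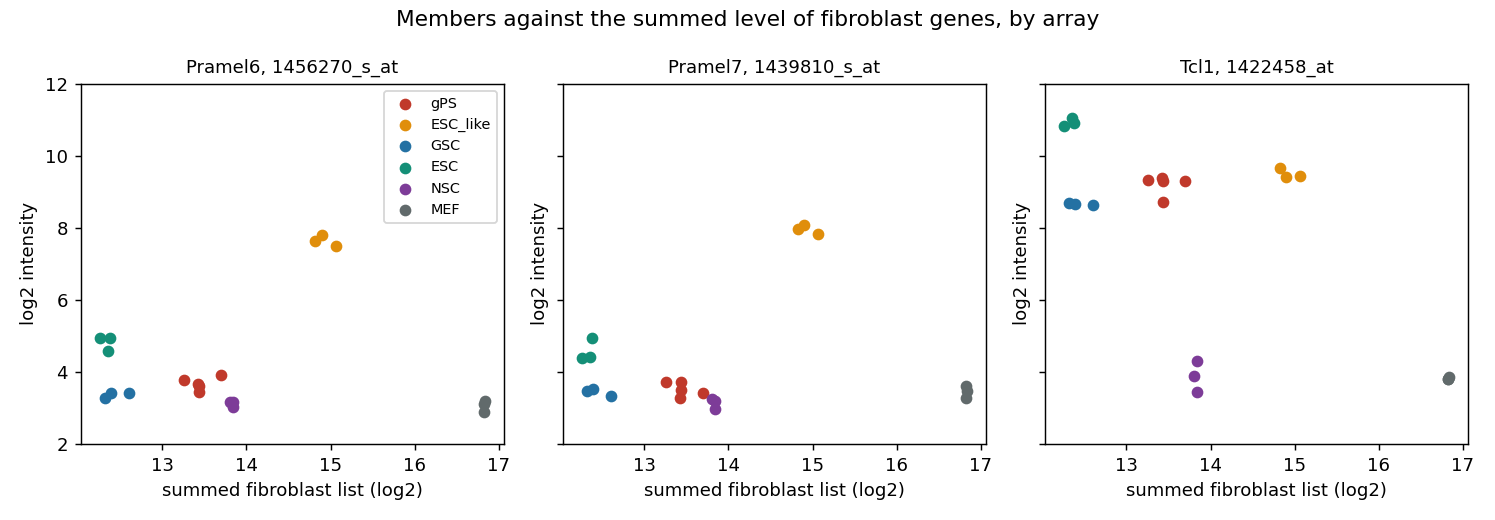
Log2 intensity of each member (vertical axis, brightest probe set) against the log2 of the summed intensity of the 23 fibroblast and feeder genes (horizontal axis), with 1 point per array coloured by group. The MEF arrays, farthest to the right, lie at 3.87 or below for all 3 members.

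The relatives of the members were counted by the same rule. The list holds the other PRAME family genes with a probe set of 1 gene symbol (Prame, 9 Pramel genes, Oog3 and Oog4) and the TCL1 family (Mtcp1, Tcl1b1, Tcl1b3 and Tcl1b4). They are 16 in all, of which 3 had a group mean over 7. Probe sets annotated to several genes with a Pramel gene among them are not in it. One of those, 1449962_at, averaged 11.96 in GSC, 7.18 in ESC_like and 3.10 in gPS. For gPS minus GSC, 3 of 16 relatives were called, all lower, a share near the 20.0% of all genes. For gPS minus ESC, limma called 0 of 16, where 4.49% of all genes were called, and 3 had an unadjusted p under 0.05, as 35.1% of all genes had. For gPS minus ESC_like, 1 of 16 was higher and 1 lower, where 4.85% of all genes were called. For ESC_like minus ESC, 1 was higher and 0 lower, near the 7.21% of all genes, and 8 had an unadjusted p under 0.05, as 39.3% of all genes had. The median differences of the list were -0.04, -0.05, 0.15 and -0.17 in these 4 comparisons, beside 0.02, 0.02, 0.09 and -0.09 for all genes.

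Pramel12 was called in both comparisons with ESC_like, where its level stood above that of gPS and ESC, but its GSC level was close to that of ESC_like. It averaged 7.03 ± 0.14 in gPS (SD, n = 5), 8.62 ± 0.19 in ESC_like, 8.56 ± 0.18 in GSC and 7.07 ± 0.25 in ESC (SD, n = 3 each). It was lower in gPS than in ESC_like by a log2 difference of -1.58 ± 0.12 (SE, limma adjusted p = 9.97e-09) and lower than in GSC by -1.52 ± 0.12 (limma adjusted p = 1.1e-09). It was higher in ESC_like than in ESC by 1.55 ± 0.14 (SE, limma adjusted p = 2.87e-08). All 3 of its probe sets had this shape, with means of 6.83 to 7.03 in gPS, 8.46 to 8.62 in ESC_like, 7.94 to 8.69 in GSC and 6.78 to 7.07 in ESC.

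Pramel13 averaged 8.10 in gPS, 7.71 in ESC_like, 9.78 in GSC and 7.63 in ESC, and it was called lower in gPS than in GSC (-1.68 ± 0.13, SE, limma adjusted p = 5.6e-10). Prame, the founding member of the family, averaged 3.49 in gPS and 4.60 in GSC (-1.11 ± 0.14, SE, limma adjusted p = 1.06e-06). That call was lost without GSC replicate 1, the array with the high Actb 3' to 5' difference, where the difference was -0.99. Pramel18 averaged 3.43 in gPS, 4.35 in ESC_like, 2.85 in GSC and 4.20 in ESC, so it was low in GSC as Pramel6 and Pramel7 were, and its gPS minus ESC_like difference of -0.92 missed the 2-fold limit. It passed without gPS replicate 3, at -1.02.

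Of the genes beside Tcl1, Tcl1b3 was called higher in gPS than in ESC_like, at 10.53 in gPS and 9.50 in ESC_like (1.03 ± 0.15, SE, limma adjusted p = 2.29e-05). The call was lost without gPS replicate 2 (0.98), gPS replicate 4 (0.99) or ESC_like replicate 1 (0.99). Its ESC_like minus ESC difference of -0.93 was not called with all arrays and passed without ESC replicate 1, at -1.04. Its probe set, of the x_at type whose probes can bind other transcripts, also read 10.14 in NSC and 9.96 in MEF, where Tcl1 itself was low. Mtcp1, Tcl1b1 and Tcl1b4 were called in none of the 4 comparisons.

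**Figure D3:**
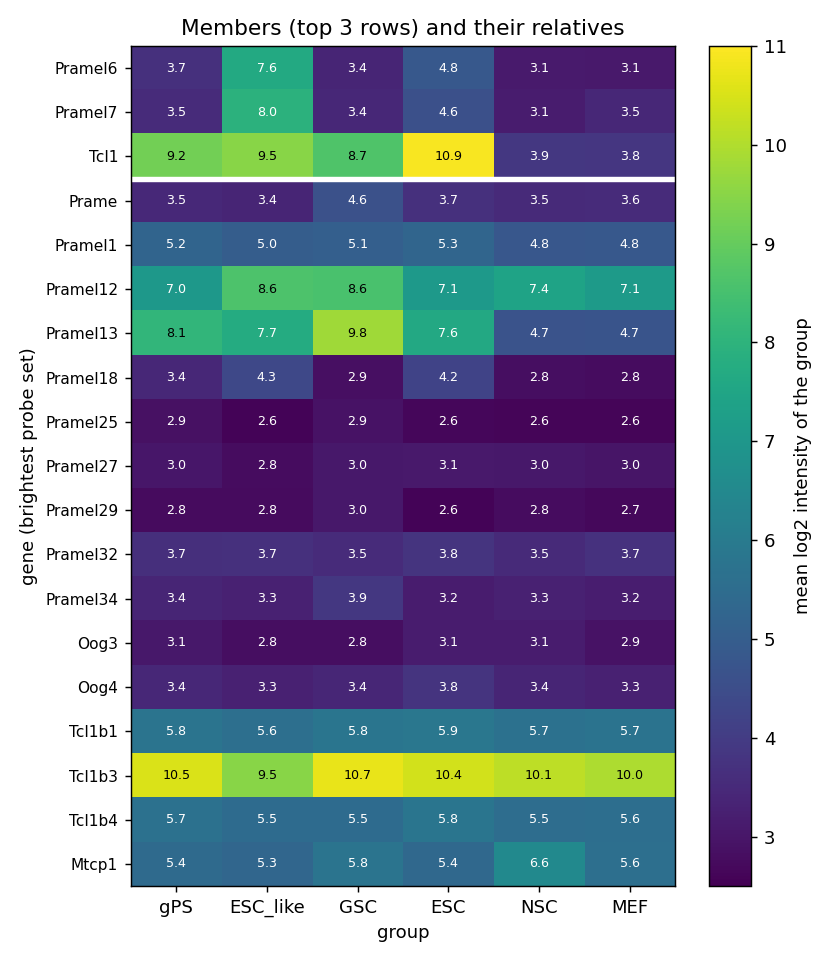
Mean log2 intensity per group (columns) of the 3 members (top 3 rows) and their 16 measured relatives, by the brightest probe set of each gene. Pramel6 and Pramel7 are bright only in the ESC_like column, and Tcl1 in the gPS, ESC_like, GSC and ESC columns. Pramel12 is brightest in the ESC_like and GSC columns (8.62 and 8.56), with 7.03 in gPS and 7.44 in NSC. Pramel13 is brightest in GSC (9.78), and Tcl1b3 is bright in every column.

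The genes measured nearest to the members on the chromosome were read as a further description of position. On the array, the 3 nearest genes on each side of the Pramel pair (Olfr154, Fads2b, Aplnr, Olfr74, Olfr73 and Olfr1264) lie 463 to 2510 kb away, and limma called none of the 6 in any of the 4 comparisons. Around Tcl1, the Tcl1b4, Tcl1b3 and Tcl1b1 genes lie 9.76, 21.4 and 50.1 kb away on one side, and Tunar, D430019H16Rik and AU015791 lie 114, 231 and 291 kb away on the other. D430019H16Rik averaged 4.94 in gPS and 7.17 in GSC and was called lower in gPS (-2.23 ± 0.14, SE, limma adjusted p = 3.34e-11), while the Tcl1 mean stood 0.54 higher in gPS. Over the 12 genes, limma called 1 for gPS minus GSC, 0 for gPS minus ESC, 1 for gPS minus ESC_like and 0 for ESC_like minus ESC, where 20.0%, 4.49%, 4.85% and 7.21% of all genes were called. An unadjusted p under 0.05 was reached by 2 for gPS minus ESC and 5 for ESC_like minus ESC, against 35.1% and 39.3% of all genes. The count of 1 for gPS minus ESC_like and that of 0 for ESC_like minus ESC turned with Tcl1b3, to 0 and 1, when the arrays named above for it were left out.

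Genes of the LIF and STAT3 pathway, through which Pramel6 and Pramel7 are known to be induced, were counted next, 25 of 26 listed genes being measured. For gPS minus GSC, 15 were called, 9 higher and 6 lower, where 20.0% of all genes were called. For gPS minus ESC, 2 (8% of the list against 4.49% of all genes) were called, both higher. For gPS minus ESC_like, 2 (8% against 4.85%) were called, both lower, and for ESC_like minus ESC 4 (16% against 7.21%), all higher. The medians were -0.03, 0.20, -0.34 and 0.47 in these comparisons, beside 0.02, 0.02, 0.09 and -0.09 for all genes.

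The receptor genes Lifr and Il6st were not called for gPS minus GSC (-0.03 ± 0.14 and -0.10 ± 0.13, SE). The transducer Stat3 was lower in gPS, at 8.52 against 11.20 in GSC (-2.68 ± 0.14, SE, limma adjusted p = 1.82e-12). Among genes known downstream of LIF in mouse embryonic stem cells, Klf5 was higher in gPS than in GSC by 4.96 ± 0.24 (SE, limma adjusted p = 2.61e-13), Tfcp2l1 by 4.04 ± 0.24 (7.86e-12) and the feedback inhibitor Socs2 by 3.54 ± 0.24 (6.29e-11). Such genes did not all rise. Socs3 and Pim1 are named here after their values were seen. Socs3 was called lower in gPS than in GSC (-1.02 ± 0.12, SE, limma adjusted p = 2.65e-07), and Pim1 was not called (-0.19 ± 0.18, SE). In that comparison the Pramel6 mean stood 0.32 and the Pramel7 mean 0.09 higher in gPS.

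Junb, a component of the AP-1 transcription factor, was the LIF-list gene with the largest called difference in both comparisons with ESC_like. It averaged 7.24 in gPS, 8.95 in ESC_like and 6.94 in ESC, with a difference of -1.71 ± 0.22 for gPS minus ESC_like (SE, limma adjusted p = 6.86e-06) and of 2.02 ± 0.25 for ESC_like minus ESC (SE, limma adjusted p = 2.5e-06). The pluripotency factor Klf4 averaged 11.10 in ESC_like and 9.31 in ESC (1.79 ± 0.25, SE, limma adjusted p = 1.68e-05), and the kinase gene Pim2 averaged 7.91 in ESC_like and 6.75 in ESC (1.16 ± 0.11, SE, limma adjusted p = 5.91e-08). Both were also called higher in gPS than in ESC, Pim2 by 1.58 ± 0.10 (SE, limma adjusted p = 2.18e-10) and Klf4 by 1.45 ± 0.23 (SE, limma adjusted p = 7.29e-05), the comparison in which the Pramel6 and Pramel7 means were lower in gPS. In MEF, Junb averaged 7.49, Klf4 9.70 and Pim2 4.95, and the part of the feeder RNA in these differences was not tested.

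Stat3 averaged 8.52 in gPS, 9.66 in ESC_like and 8.65 in ESC, and 9.55 in MEF. It was called lower in gPS than in ESC_like (-1.14 ± 0.14, SE, limma adjusted p = 4.74e-06) and higher in ESC_like than in ESC (1.01 ± 0.16, SE, limma adjusted p = 5.97e-05). The mean of its probe sets gave -0.40 and 0.36 and ended both calls, and leaving out ESC replicate 3 (0.87) or ESC_like replicate 3 (0.93) ended the call against ESC.

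Genes around UHRF1 and DNA methylation, the known target side of PRAMEL7, were measured for 22 of 23 listed. Of these, 7 were called higher and 2 lower in gPS than in GSC, where 20.0% of all genes were called, with a median of 0.46 beside 0.02 for all genes. For gPS minus ESC, gPS minus ESC_like and ESC_like minus ESC, limma called 0 in each, where 4.49%, 4.85% and 7.21% of all genes were called. An unadjusted p under 0.05 was reached by 10, 12 and 10 of the 22, against 35.1%, 40.4% and 39.3% of all genes. Tet1, which oxidises methylated cytosine, was higher in gPS than in GSC by 6.85 ± 0.12 (SE, limma adjusted p = 6.01e-20), and Dnmt3l, a cofactor of the de novo methyltransferases, averaged 11.56 in gPS and 6.04 in GSC. Zbtb33, which encodes the methyl-DNA reader Kaiso, was lower in gPS by -2.72 ± 0.14 (SE, limma adjusted p = 1.64e-12). Cul2, the ligase scaffold, was not called for gPS minus GSC (-0.03 ± 0.11, SE). Uhrf1, named here after its values were seen, averaged 10.10 in gPS, 10.03 in ESC_like, 9.69 in GSC and 10.53 in ESC, and it was called in none of the 4 comparisons. UHRF1 protein was not measured.

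Genes of the PI3K and AKT pathway, on which Tcl1 is known to act, were measured for 30 of 33 listed. For gPS minus GSC, 3 were called higher and 8 lower, where 9.10% of all genes were higher and 10.9% lower, and the median was -0.20 beside 0.02 for all genes. For gPS minus ESC, limma called 0, where 4.49% of all genes were called, and 10 had an unadjusted p under 0.05, as 35.1% of all genes had. Leaving out ESC replicate 1, or gPS replicate 1, 2, 3 or 4, gave 1 call in that comparison. Akt1, named for it after its values were seen, stood 0.98 ± 0.17 higher in gPS than in ESC (SE, limma adjusted p = 2.31e-04), just under the 2-fold limit. Its gPS replicate 5 read 8.66, against 7.66 to 7.88 in the other gPS arrays. Eras, which encodes a Ras protein of embryonic stem cells that activates PI3K, averaged 9.54 in gPS and 4.29 in GSC (5.25 ± 0.15, SE, limma adjusted p = 9.69e-17). Pik3r3, a regulatory subunit of PI3K, averaged 5.41 in gPS and 9.88 in GSC (-4.48 ± 0.12, SE, limma adjusted p = 2.17e-17). Foxo1, a transcription factor restrained by AKT, was lower in gPS by -1.78 ± 0.17 (SE, limma adjusted p = 1.16e-08).

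In the comparisons with ESC_like, 1 gene of the AKT list was called lower in gPS and 2 higher in ESC_like than in ESC, shares near the 4.85% and 7.21% of all genes. Inpp5d, the phosphatase SHIP1, averaged 7.00 in gPS, 9.31 in ESC_like and 7.18 in ESC and was called in both, at -2.30 ± 0.20 for gPS minus ESC_like (SE, limma adjusted p = 4.29e-08) and 2.13 ± 0.22 for ESC_like minus ESC (SE, limma adjusted p = 3.24e-07). It averaged 5.14 in MEF. Akt1 averaged 8.59 in ESC_like and 6.97 in ESC (1.63 ± 0.19, SE, limma adjusted p = 1.65e-06), with 9.69 in MEF, and the mean of its probe sets gave 0.82, which ended the call.

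**Figure D4:**
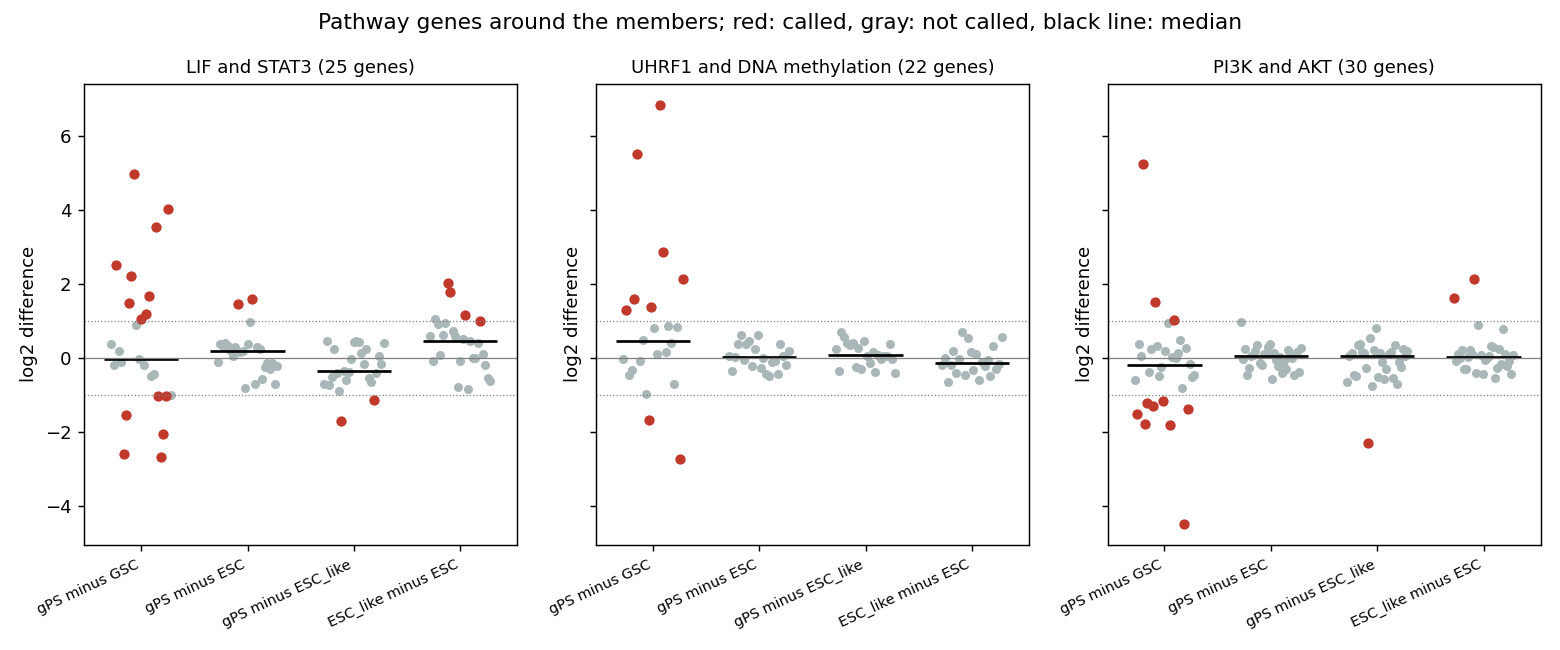
Log2 difference (vertical axis) of every measured gene of the lists around the members in 4 comparisons (horizontal axis), with called genes in red, the others in gray and the list's median as a black line. For gPS minus GSC 15 of 25 genes of the LIF and STAT3 list, 9 of 22 of the UHRF1 list and 11 of 30 of the AKT list were called, where 20.0% of all genes were, and in the other comparisons at most 4 per list.

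The genes with the pattern most like each member were taken by Pearson r over the 20 arrays among 9393 genes with a group mean over 7, which is a description without a test. For Pramel6 they were Lama3 (0.945), a laminin chain, Npy (0.936), a neuropeptide, Gm21283 (0.931), AI662270 (0.923) and Znhit3 (0.921). For Pramel7 they were Gm21283 (0.950), AI662270 (0.948), Npy (0.945), Lama3 (0.940) and Sfi1 (0.922). The lists share 4 genes, which passed the limit of 7 only in ESC_like, so that being highest there follows from their selection, as with Gm21283 at 3.47 in gPS, 7.92 in ESC_like and 3.37 in ESC. When the ESC_like arrays were left out, the 4 shared genes and Sfi1 fell under the limit of 7 and could not be ranked. Their absence from the lists was thereby fixed in advance. Znhit3, at 9.18 in gPS, could still be ranked and did not stay among the top 5 for Pramel6.

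For Tcl1 the 5 genes were Zwilch (0.985), a kinetochore gene, Morc1 (0.985), known from spermatogenesis, Slc9b1 (0.984), a sodium-proton exchanger, Ccnb1ip1 (0.981), known from meiotic crossing over, and Atf7ip2 (0.980). Morc1 averaged 10.61 in gPS, 10.64 in ESC_like, 9.19 in GSC, 11.12 in ESC, 2.86 in NSC and 3.07 in MEF, the same order of groups as Tcl1 but for the last pair. The others had another order, though all 5 were lowest in NSC and MEF. Slc9b1 averaged 6.74 in gPS and 7.01 in GSC, and Atf7ip2 7.17 and 7.48. Ccnb1ip1 averaged 9.13 in gPS and 8.64 in ESC_like, and Zwilch 9.88 and 9.86. Without the ESC_like arrays 3 of the 5 stayed among the top 5, and with Spearman's rho in place of r 0 of them did.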

How the data were processed

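Transcript levels of 20 mouse samples were read on Affymetrix arrays with biotin-labelled RNA, per the labels' protocols. The deposited values are log2 intensities per probe set, and the submitters' processing notes name RMA as the authors' method, without a version. They were used as deposited. Of 45101 probe sets, 34945 had 1 gene symbol, 932 several and 9160 none, and 64 controls were left out. The platform annotation's symbols were updated from RefSeq for 34741, and the probe set with the highest mean stood for each of 18193 genes.

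Group means of all 20 arrays were fitted with limma 3.58.1 in R 4.3.3 (lmFit, eBayes), with no covariate. The members and the gene lists were chosen with earlier results of these data known, so neither is independent evidence. Named were the members, their relatives and chromosome neighbours, and the most alike genes. Per list and comparison, up to 4 called genes with the largest differences and up to 2 others with the smallest could be named. On simulated data with 18193 genes, the fit called 54% of changes of 1 log2 unit and 100% of changes of 1.5 for gPS minus GSC, and 42% and 100% for gPS minus ESC_like. A change of 1 lies at the 2-fold limit of a call, so its share says little about sensitivity. The simulation changed 50 genes per size and gave the groups otherwise the same mean, unlike the data. Replicate numbers were checked for pairing. Promoter windows came from RefSeq (GRCm38.p6). The number of arrays limits the precision. Tables were made in Python 3.11.15 (pandas 2.3.3, numpy 2.4.6) and figures with matplotlib 3.10.9.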

Additional observations from a re-analysis of the deposited data

Results flagged for a closer look

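In 6 of 67 gene or probe set values tested within the 5 gPS arrays, 1 array lay far from the other 4 by Dixon's criterion, which chance meets in about 1 in 20 groups. Tcl1 read 8.72 in gPS replicate 1 and 9.30 to 9.37 in the others. The same array stood apart for Klf4 at 11.72 (others 10.29 to 10.63), Socs2 at 8.84 (others 10.21 to 10.40) and Stat3 at 9.06 (others 8.33 to 8.46), and it is the array with the lowest correlation with its group. Akt1 read 8.66 in gPS replicate 5 against 7.66 to 7.88 in the others, and Pramel34 read 3.89 in gPS replicate 4 against 3.16 to 3.31.

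A probe set annotated to 5 genes with a Pramel gene among them, 1449962_at, entered no comparison because it could not be given 1 name. It averaged 3.10 in gPS, 7.18 in ESC_like (7.02 to 7.41), 11.96 in GSC (11.90 to 12.06), 2.92 in ESC, 3.03 in NSC and 2.85 in MEF.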

How the results depend on the processing

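The 350 recomputed member differences all moved by less than 1 SD, pooled over the 2 groups compared. For those with 1 array left out this was fixed by arithmetic. Leaving out 1 array of so small a group cannot shift a difference by more than that SD, so these rows say nothing about stability. Of the 350, 6 changed sign, all of differences near 0 in the main setting (Pramel6 1456269_at for gPS minus NSC, Pramel7 1439809_at for gPS minus ESC and Pramel7 1439810_s_at for gPS minus MEF). Among the gene results named by the rule given above, no called difference changed sign, and other called genes were not checked for this. With the adjusted p alone and no fold limit, the relatives list had 6, 3, 4 and 3 genes for gPS minus GSC, gPS minus ESC, gPS minus ESC_like and ESC_like minus ESC, the UHRF1 list 17, 8, 5 and 9, the AKT list 21, 8, 11 and 7, the LIF list 9, 10 and 13 in the last 3, and the neighbours 2 for gPS minus GSC and 2 for ESC_like minus ESC. With the mean of probe sets the LIF list had 1 call for gPS minus ESC_like, and the AKT list had 6 for gPS minus GSC, 2 for gPS minus ESC_like and 1 for ESC_like minus ESC. With shared-suffix probe sets left out, so that fewer genes were measured, gPS minus ESC_like had 1 call among the relatives, 1 in the LIF list, 0 in the AKT list and 0 among the neighbours, and ESC_like minus ESC had 1 in the AKT list. Leaving out 1 array at a time gave 1 to 3 relatives for gPS minus ESC_like and 1 to 2 (without ESC replicate 1) for ESC_like minus ESC, 0 to 1 gene of the AKT list for gPS minus ESC, and 0 to 1 neighbour for gPS minus ESC_like and for ESC_like minus ESC. Phlpp2 in gPS minus GSC lost its call with the mean of probe sets (-0.79), and Stat3 in ESC_like minus ESC lost it in 3 further settings (0.93 with quantile normalization, 0.95 with array weights, 0.16 with shared-suffix probe sets left out, which gave -0.52 for gPS minus ESC_like). The cause of these changes was not tested.

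Deviations of same-numbered arrays from their group means correlated at r from -0.17 to 0.27, and no pairing was used in the main fit. This check cannot exclude a shared batch or origin, because deviations within so small a group are not independent. A replicate block left the list counts within 1.5 times the main ones, with 2 relatives, 14 LIF, 9 UHRF1 and 10 AKT genes for gPS minus GSC, and Prame (-0.97) lost its call.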
